A study of Mus musculus with 36 samples.

Results

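Nlrc5 encodes a member of the NOD-like receptor family that acts in the nucleus as a transactivator of MHC class I genes. The members were all probe sets whose only gene symbol is Nlrc5, and the array carried 1 of them, 1437176_at, among 34945 probe sets with a single symbol. Nlrc5 is therefore 1 of the 18193 genes with such a probe set and 1 of the 9549 genes tested. It was chosen by its measured levels, since earlier results of these data showed late induction, so its own values are given as a description and without a test.

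RNA newly made in NIH-3T3 cells, an established mouse embryo fibroblast line, was labelled with 4-thiouridine (4sU) and read on 36 Affymetrix arrays. Fresh medium carried mock, IFN alpha at 100 U/ml or IFN gamma at 100 U/ml. 4sU was present at 500 µM during 0-30, 30-60 or 150-180 min after the medium change, or at 200 µM during 0-60 min. No window covered the time from 60 to 150 min. Each of the 12 groups of treatment and window has 3 arrays. All groups share the same line at passage 5 to 15, so the line and the medium change are common to mock and interferon. Nothing in the labels says that the numbered arrays of a group come from separate cultures. The p-values therefore cover the spread from array to array, which may be technical, and 3 arrays per group limit the precision. All 10 fibroblast markers passed the filter on low values, with a median log2 level of 11.92. Of the markers of other cell types on the array, 0 of 8 for lymphocytes, 0 of 5 for endothelium, 0 of 5 for epithelium and 1 of 9 for macrophages and dendritic cells passed it. That 1 was Cd14, with a mean of 6.17 (4.69 to 7.29 over the 36 arrays), and the defining macrophage and leukocyte markers Adgre1, Csf1r, Itgam and Ptprc were under the filter. Arrays of one group correlated at 0.91 to 0.995, lowest in mock 0-60 min, where array 1 stood apart.

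As background, MHC class I molecules show peptides from inside the cell to CD8 T cells. They consist of a heavy chain, encoded by genes such as H2-K1 and H2-D1, and the light chain B2m. Peptides are cut by the immunoproteasome, pumped into the endoplasmic reticulum by Tap1 and Tap2, trimmed by Erap1 and loaded with help from Tapbp. Nlrc5 does not bind DNA by itself. It joins the RFX, CREB/ATF and NF-Y factors that sit on the conserved S, X and Y boxes of class I promoters. Interferons, above all IFN gamma, are known to induce Nlrc5.

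Nlrc5 read at background in 10 of the 12 groups and above it in the last window with either interferon. At 150-180 min the log2 levels with IFN gamma were 7.59, 7.56 and 7.78, with a mean of 7.64 ± 0.119 (SD, n = 3). With IFN alpha they were 5.44, 5.51 and 4.84, with a mean of 5.26 ± 0.372 (SD, n = 3). With mock they were 2.37, 2.35 and 2.34, with a mean of 2.35 ± 0.0129 (SD, n = 3). The 3 sets of arrays did not overlap, with every IFN gamma array above every IFN alpha array and every IFN alpha array above every mock array.

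The other 9 groups gave Nlrc5 no reading that stood out. Over the 30 arrays of the 10 low groups the log2 level ran from 2.33 to 2.40. In the 0-30 min window the 9 arrays lay between 2.33 and 2.36, at 30-60 min between 2.35 and 2.39, and at 0-60 min between 2.37 and 2.40. The filter on low values kept a gene with a log2 level above 4 on at least 3 arrays, and Nlrc5 passed it only through the 6 interferon arrays of the last window. In order of level, IFN gamma 150-180 min came first and IFN alpha 150-180 min second, and the 10 groups at the floor have no order among themselves.

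**Figure D1:**
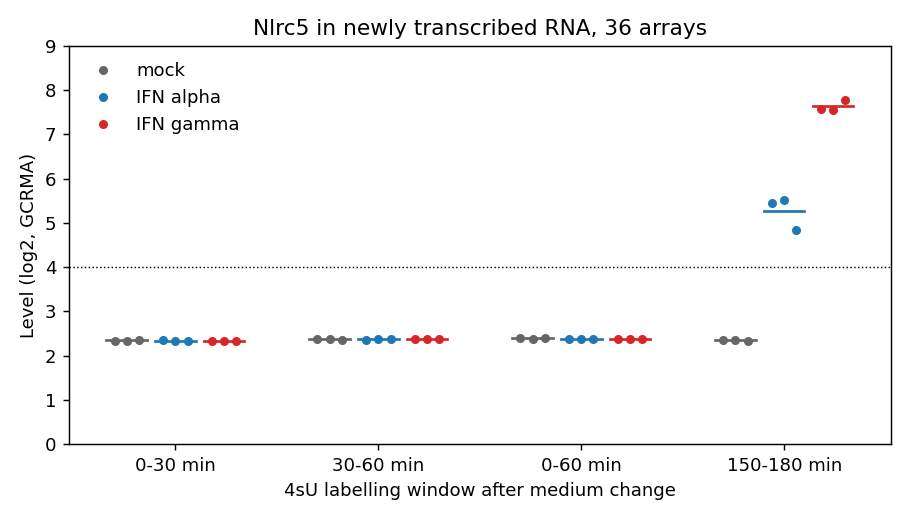
Log2 level of Nlrc5 (vertical axis, GCRMA values) on each of the 36 arrays, by labelling window (horizontal axis) and treatment (colour). Points are arrays, short lines are means of 3 arrays and the dotted line is the filter at log2 4. Only the IFN alpha and IFN gamma arrays of 150-180 min, between 4.84 and 7.78, lie above the dotted line.

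As differences from mock at 150-180 min, Nlrc5 was 5.29 higher on the log2 scale with IFN gamma (39.1-fold, SD of the difference 0.119) and 2.91 higher with IFN alpha (7.53-fold, SD 0.372). These folds are over a mock reading at background, so they describe the reading above background and not a ratio of measured levels. Over all 9549 genes every array of the first group lay above every array of the second for 10.2% with IFN gamma against mock, 6.87% with IFN alpha against mock and 10.9% with IFN gamma against IFN alpha. In size, the IFN gamma difference ranked 21 and the IFN alpha difference ranked 70 of 9549. IFN gamma exceeded IFN alpha by 2.38 on the log2 scale (5.2-fold, SD 0.39).

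In the earlier windows the Nlrc5 differences from mock were between -0.02 and 0.01 on the log2 scale with either interferon. From 30-60 min to 150-180 min the IFN gamma response of Nlrc5 grew by 5.28, rank 1 of 9549 genes, and the IFN alpha response by 2.91, rank 13. These ranks use the contrast for which the gene was chosen and are a description. After log2(value + 16), which dampens low readings, the differences from mock at 150-180 min were 3.35 for IFN gamma and 1.37 for IFN alpha. At these readings no early transcription of Nlrc5 was detectable, which is not the same as its absence.

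The class I pathway was described with 42 listed genes: class I molecules, the peptide loading complex and the immunoproteasome. Of these, 25 had a probe set of their own and 19 passed the filter and were tested with limma over all 9549 genes. A gene was called where the Benjamini-Hochberg adjusted p was under 0.05. Probe sets shared by several heavy chain genes were left out, and the H2 probe sets that remain may still read close paralogs, so a value for 1 heavy chain gene is uncertain.

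The promoters of genes that Nlrc5 is known to act on are shown next, with letters of the X and Y boxes marked where they occur. The Tap1 stretch holds such letters of the X box only. Letters of the S box and of the RFX factors were not searched. They are 150-base stretches before the start of transcription, 5′ to 3′ on the gene's strand, from RefSeq on build GRCm38.p6. Of 20 genes looked up, 14 were in that table. Capitals mark, on either strand, TGACG (the CREB/ATF core, as in the X box), ATTGG (the reverse CCAAT of the Y box, bound by NF-Y) and GAAANNGAAA (a core of the interferon-stimulated response element).
B2m (light chain, chr2:122147537-122147686, plus strand): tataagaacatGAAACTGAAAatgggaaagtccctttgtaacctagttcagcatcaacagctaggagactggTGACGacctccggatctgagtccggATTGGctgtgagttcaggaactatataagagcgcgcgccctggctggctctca
H2-K1 (heavy chain, chr17:34000348-34000497, minus strand): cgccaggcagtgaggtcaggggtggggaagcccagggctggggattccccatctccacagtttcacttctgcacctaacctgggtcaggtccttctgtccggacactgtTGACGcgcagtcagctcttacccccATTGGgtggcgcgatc
H2-D1 (heavy chain, chr17:35262944-35263093, plus strand): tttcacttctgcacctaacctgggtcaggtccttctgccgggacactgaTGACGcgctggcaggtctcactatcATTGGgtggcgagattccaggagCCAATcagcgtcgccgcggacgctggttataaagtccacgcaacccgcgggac
H2-M3 (heavy chain of a non-classical molecule, chr17:37270084-37270233, plus strand): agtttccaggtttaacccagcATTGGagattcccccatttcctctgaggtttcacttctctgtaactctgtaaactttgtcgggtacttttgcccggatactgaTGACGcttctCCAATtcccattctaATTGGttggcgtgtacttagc
Tap1 (peptide transporter, chr17:34187406-34187555, plus strand): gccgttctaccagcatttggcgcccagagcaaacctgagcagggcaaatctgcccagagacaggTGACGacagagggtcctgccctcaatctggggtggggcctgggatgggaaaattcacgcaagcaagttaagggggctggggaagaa

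B2m, H2-K1, H2-D1 and H2-M3 hold TGACG and, with its first base 25 bases further on, ATTGG. This spacing was noticed in these sequences after they were read and searched afterwards as TGACGNNNNNNNNNNNNNNNNNNNNATTGG on both strands. It occurred in 30 of 32851 promoter windows of 250 bases, or 0.0913%, from 26 genes, and 4 of the 14 class I molecule genes in the table were among them. Those 4 are the genes in which the spacing was noticed, so their count was fixed in advance and supports nothing by itself. The spaced pair starts 78 bases before the start in B2m, 41 in H2-K1, 101 in H2-D1 and 46 in H2-M3. H2-K1 has 2 listed starts, and the pair lies 55 bases before the start not shown. Alone, TGACG is in 17.8% and ATTGG in 33.8% of windows, so single matches are common, and GAAANNGAAA, found here in B2m, is in 2.98%. Only exact matches to GAAANNGAAA were searched, so a stretch without that mark may still hold an interferon response element of other letters. The STAT site TTCNNNGAA was also searched and is in 7.02%, with 1 match among these windows, in H2-M3 upstream of the stretch shown. The windows of Tap1, Psmb9, Psmb10, Tapbp, Erap1 and Psme1 do not hold the spaced letters, and those of Psmb10, Erap1 and Psme1 hold none of the motifs searched.

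Class I pathway genes differed in the window in which they were first called, and 6 of the 19 were called with neither interferon. These windows and counts are from the fit without the array number as a block, unless the block is named. With IFN gamma, 2 of the 19 tested genes were higher than mock at 0-30 min (background over all genes 0.754%), 7 at 30-60 min (3.82%), 5 at 0-60 min (3.83%) and 12 at 150-180 min (4.37%). The counts with IFN alpha were 2 (0.377%), 11 (2.4%), 8 (1.91%) and 12 (2.58%). Tap1, Psmb9, Tapbpl and Erap1 passed the filter only through interferon arrays, with 0 mock arrays above log2 4. They could thus hardly fail to differ, and the counts support nothing by themselves. Over the other 15 genes the counts were 0, 5, 3 and 8 with IFN gamma and 0, 9, 6 and 8 with IFN alpha, in the same order of windows. Psmb10 and H2-Q5, among these 15, had 1 mock array each above log2 4. They reached the 3 arrays of the filter only with interferon arrays, so these counts are not free of that choice either. In these 8 comparisons 0 of the 19 genes were lower at the adjusted threshold of the limma fit. Over all genes 0%, 0.189%, 0.0733% and 0.115% were lower with IFN alpha and 0.0419%, 2.06%, 2.9% and 1.54% with IFN gamma, in the same order of windows. At an unadjusted p under 0.05, 1 gene, H2-T18, was lower at 0-60 min with each interferon, and 0 in the other windows. The background at that threshold was 0.377%, 3.86%, 3.57% and 3.83% with IFN alpha and 0.513%, 7.73%, 11.8% and 7.11% with IFN gamma. The 2 interferons are compared with the same mock arrays, so their counts are set side by side only. With the array number as a block, the 0-60 min count for IFN gamma was 9, with 8 higher and 1, Calr, lower.

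Tap1 and Psmb9, which lie head to head with overlapping promoter windows, were called with both interferons while Nlrc5 was still at background. Tap1, a subunit of the peptide transporter, read 6.83, 6.76 and 6.78 with IFN gamma at 0-30 min against 3.54, 3.06 and 2.67 with mock. The groups did not overlap, and the log2 difference was 3.70 (SE 0.282, adjusted p 4.5e-11, limma). With IFN alpha the Tap1 levels were 6.06, 5.37 and 5.33, a log2 difference of 2.50 (adjusted p 4.5e-07, limma). At 150-180 min Tap1 read 9.20, 9.04 and 9.23 with IFN gamma and 7.56, 7.67 and 7.54 with IFN alpha, against 3.22, 3.42 and 2.68 with mock. Every interferon array lay above every mock array in both windows. Mock levels of Tap1 are under the filter, so its folds are also over background, and 3 other Tap1 probe sets did not pass the filter.

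Psmb9, an inducible subunit of the immunoproteasome, read 4.92, 4.49 and 4.48 with IFN gamma at 0-30 min against 2.78, 2.78 and 2.63 with mock. The log2 difference was 1.90 (SE 0.213, adjusted p 2.8e-07, limma). With IFN alpha it was 1.07 (adjusted p 0.0061, limma). That call ended without mock array 3 (1 of 19 genes called) or without IFN alpha array 1 (1 of 19), and after log2(value + 16), where the difference was 0.41. Psmb9 was higher with IFN gamma than mock by 3.30 at 30-60 min and by 5.58 at 150-180 min, when its levels were 7.99, 8.07 and 8.41 against 2.62, 2.50 and 2.59. All of these arrays stood clear of mock.

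In the fit without a block, on the probe set of highest mean, the light chain and the classical heavy chains were first called at 30-60 min. That was also before any Nlrc5 reading above background. B2m read 10.76, 10.44 and 10.87 with IFN gamma at 30-60 min against 9.53, 9.02 and 9.39 with mock, a log2 difference of 1.37 (SE 0.206, adjusted p 1.2e-05, limma). With IFN alpha at 30-60 min it read 11.29, 10.62 and 11.30, a log2 difference of 1.75. Both sets were above all mock arrays. B2m responses at 150-180 min were 1.36 with each interferon.

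With the array number as a block B2m was already called at 0-30 min, by 0.55 with IFN alpha (adjusted p 0.00049, limma) and by 0.38 with IFN gamma (adjusted p 0.017, limma). H2-K1 differences with IFN gamma were 1.12 at 30-60 min and 1.23 at 150-180 min. H2-D1 differences with IFN gamma were 1.08 and 1.19 in those windows. With IFN alpha H2-K1 was higher by 1.57 and 1.67, and H2-D1 by 1.63 and 1.58. With its probe set of largest variance H2-K1 was already called at 0-30 min with IFN alpha (1.24, adjusted p 0.0054, limma). For B2m, H2-K1 and H2-D1 the IFN gamma response did not pass the test of growth between 30-60 and 150-180 min.

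The mock levels of these genes were themselves lower at 30-60 min. Mean H2-K1 with mock was 9.34 at 0-30 min, 7.72 at 30-60 min and 8.70 at 150-180 min, and with IFN gamma it was 9.46, 8.84 and 9.93. Mean H2-D1 was 9.74, 7.95 and 9.21 with mock and 9.82, 9.03 and 10.40 with IFN gamma. The 30-60 min differences of both heavy chains are thus differences between levels that each lay below their 0-30 min value. Mean B2m was 10.18, 9.31 and 10.20 with mock, but 10.56, 10.69 and 11.56 with IFN gamma. The part of the mock levels in these differences was not tested.

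**Figure D2:**
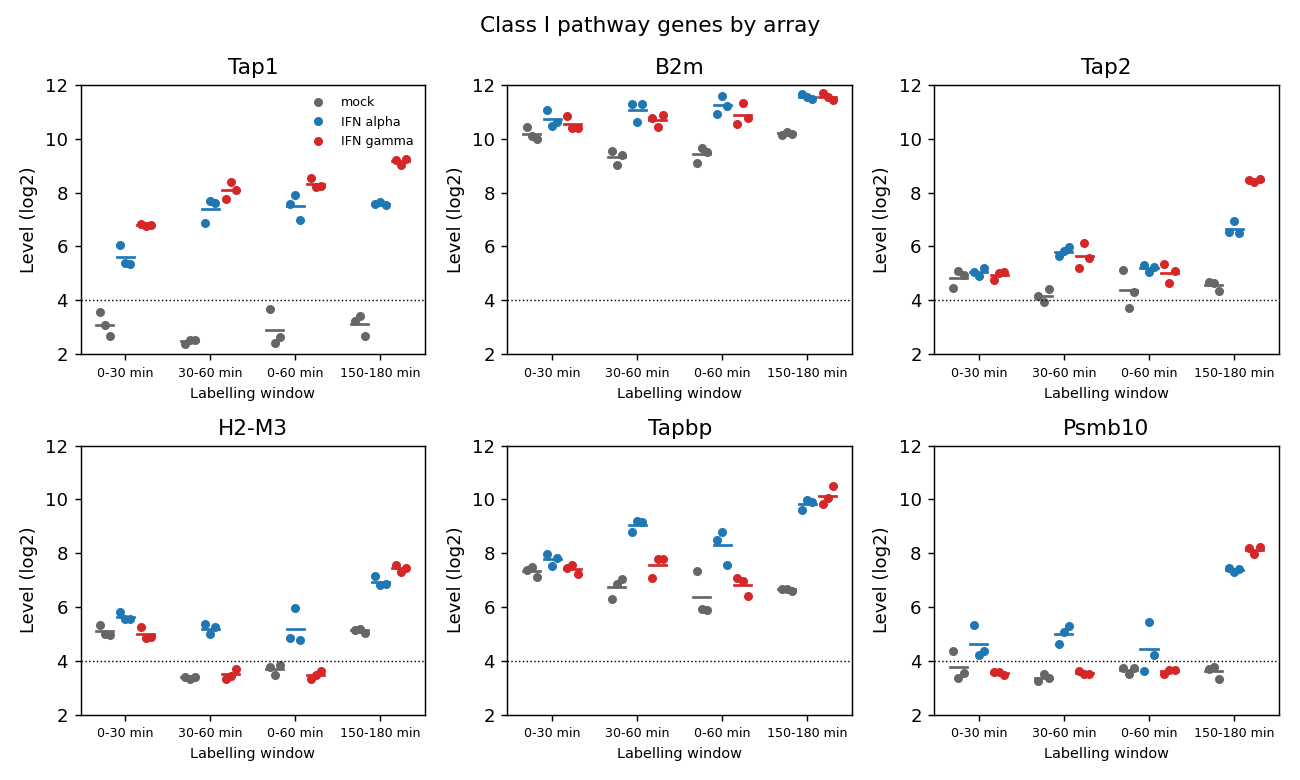
Log2 levels (vertical axes) of Tap1, B2m, Tap2, H2-M3, Tapbp and Psmb10 on each array by labelling window (horizontal axes) and treatment (colour). Points are arrays, short lines are means of 3 arrays and the dotted line is log2 4. Tap1 is above mock in every window with both interferons, whereas Psmb10 with IFN gamma was called only at 150-180 min, at 7.98 to 8.23.

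With IFN gamma 5 class I pathway genes were first called at 150-180 min, the window in which Nlrc5 was above background: H2-M3, Tapbp, Tapbpl, Erap1 and Psmb10. No RNA made between 60 and 150 min was labelled. The shared window therefore does not show a shared onset, and the order of onset of these genes and Nlrc5 cannot be told. Tapbp was called earlier under alternative settings, given below. Psmb10, another inducible immunoproteasome subunit, read 3.62, 3.49 and 3.51 with IFN gamma at 30-60 min against 3.24, 3.49 and 3.37 with mock. At 150-180 min it read 8.18, 7.98 and 8.23 against 3.72, 3.78 and 3.32. In the first of these windows the lowest IFN gamma array (3.4949) and the highest mock array (3.4941) all but met, and the difference of 0.17 was not called. In the second the groups were far apart, where the log2 difference was 4.52 (SE 0.296, adjusted p 1.3e-13, limma).

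H2-M3, the heavy chain that presents formylated peptides, read 3.34, 3.45 and 3.69 with IFN gamma at 30-60 min against 3.42, 3.32 and 3.41 with mock. At 150-180 min it read 7.56, 7.31 and 7.47 against 5.14, 5.20 and 5.05, a log2 difference of 2.32 (SE 0.212, adjusted p 4.8e-10, limma). The arrays overlapped in the first window and not in the second. Mock H2-M3 itself lay under the filter at 30-60 min and near 5 at 0-30 and 150-180 min.

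Tapbp, the tapasin that bridges the transporter and the class I molecule, read 9.82, 10.07 and 10.50 with IFN gamma at 150-180 min against 6.67, 6.69 and 6.61 with mock. The groups were far apart, with a log2 difference of 3.48 (SE 0.297, adjusted p 9.5e-11, limma). At 30-60 min the difference was 0.82 and was not called, although with the array number as a block it was (adjusted p 0.0076, limma). A second Tapbp probe set gave 3.90 at 150-180 min and 0.72 at 30-60 min with IFN gamma. That probe set was called earlier, at 0-60 min with IFN gamma (1.42, adjusted p 0.0037, limma). It was also called at 0-30 min with IFN alpha (1.49, adjusted p 0.012, limma).

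Tapbpl, a tapasin relative that edits peptides, read 5.89, 5.71 and 6.04 with IFN gamma at 150-180 min against 2.94, 3.38 and 3.11 with mock. Erap1, the peptidase that trims peptides, read 4.73, 4.21 and 4.40 against 2.91, 2.78 and 2.75. The IFN gamma arrays lay above all mock arrays for both genes. Erap1 was above log2 4 on the 3 IFN gamma arrays of this window alone, and Tapbpl on the 6 interferon arrays of this window alone, so the filter itself chose them for being high there. The fit with no filter, which tests them whatever their level, gave log2 differences of 2.74 for Tapbpl (adjusted p 6e-13, limma) and 1.63 for Erap1 (adjusted p 1.7e-12, limma). Both are over mock readings under the filter. In the earlier windows their differences with IFN gamma were between -0.01 and 0.27. A second Erap1 probe set gave 2.35 at 150-180 min and -0.08 at 30-60 min.

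Growth of the IFN gamma response between 30-60 and 150-180 min was tested directly as the difference of the 2 differences from mock. 8 of the 19 genes passed, against 1.2% of all genes. They were the 5 genes above with Tap2, Psmb9 and Psme1. Psmb10 grew by 4.35 (SE 0.419, adjusted p 7.8e-09, limma), Tapbp by 2.66, Tapbpl by 2.50, Tap2 by 2.43, Psmb9 by 2.28, H2-M3 by 2.20, Erap1 by 1.57 and Psme1 by 1.41. Of these, Psmb9, Tapbpl and Erap1 passed the filter only through interferon arrays, and 5 of the other 15 genes passed the test of growth. Psmb10 is among those 5, and with 1 mock array above log2 4 it also needed interferon arrays to pass the filter. The median over the 19 genes was 0.42 and over all genes -0.03. None of these 8 calls ended under an alternative setting in which the gene was tested, or in the 12 fits that each left out 1 array.

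Tap2, the other transporter subunit, and Psme1, a subunit of the proteasome activator, were called at 30-60 min and grew later, as did Psmb9, called from 0-30 min. Tap2 read 5.21, 6.13 and 5.55 with IFN gamma at 30-60 min against 4.14, 3.92 and 4.41, and 8.45, 8.40 and 8.51 at 150-180 min against 4.66, 4.65 and 4.33. IFN gamma arrays were above all mock arrays in both windows, with log2 differences of 1.47 and 3.91. Psme1 differences were 0.83 and 2.25. Over the first hour the IFN gamma response grew for 3 of the 19 genes, Tap1 by 1.93, Psmb9 by 1.39 and Tap2 by 1.37, against 1.27% of all genes. With the array number as a block the count was 6, and the Tap2 call ended in 9 of the 12 fits that left out 1 array.

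**Figure D3:**
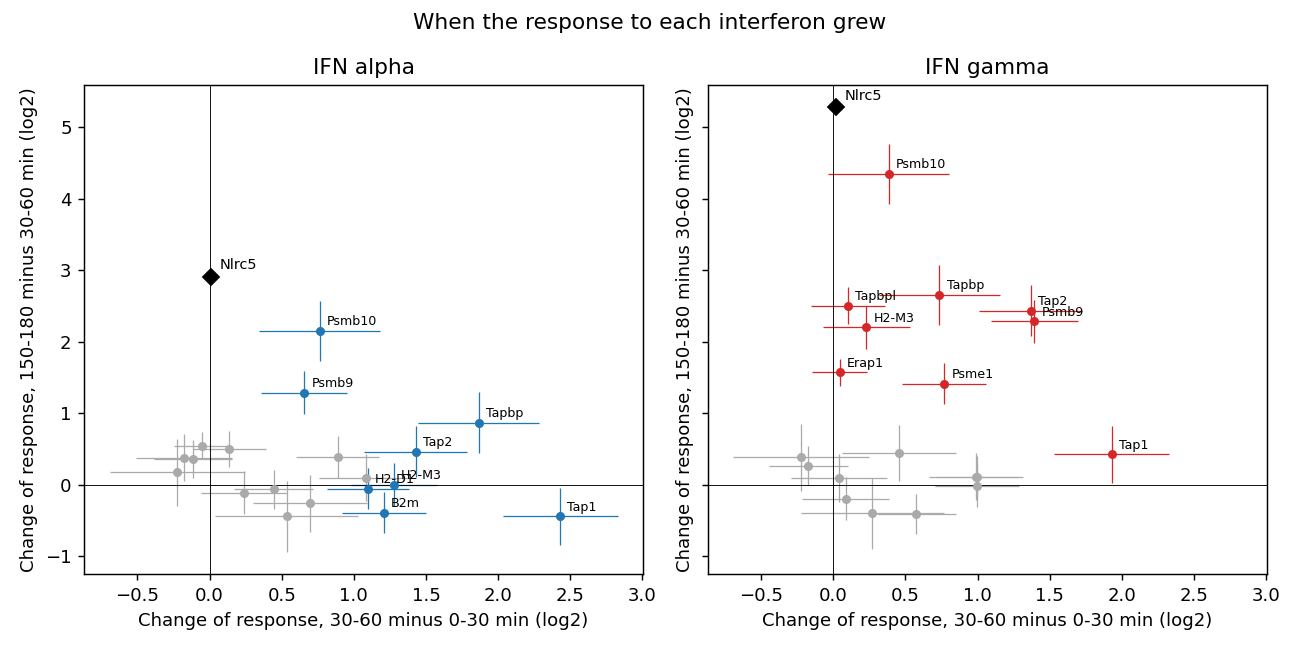
Change of the response between 0-30 and 30-60 min (horizontal axes, log2) against the change between 30-60 and 150-180 min (vertical axes, log2), for IFN alpha (left) and IFN gamma (right). Circles are tested class I pathway genes with SE bars, coloured and named where either change passed the test, and the diamond is Nlrc5, untested. With IFN gamma, Nlrc5 (5.28) and Psmb10 (4.35) stand highest, and Tap1 (1.93) lies farthest to the right.

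With IFN alpha more class I pathway genes were called by 30-60 min. H2-M3 (1.82), Tapbp (2.31), Psmb10 (1.63) and H2-Q5 (1.21) were called there with IFN alpha and not with IFN gamma. Psmb10 read 4.64, 5.06 and 5.30 with IFN alpha at 30-60 min against 3.24, 3.49 and 3.37 with mock, and H2-M3 read 5.36, 4.98 and 5.25 against 3.42, 3.32 and 3.41. Both sets were clear of mock. The H2-Q5 call ended without mock array 2 or IFN alpha arrays 1 or 3 of that window. Tapbpl (1.03) was first called at 150-180 min. Erap1 differed by 0.57 there, with all IFN alpha arrays (3.09 to 3.66) and all mock arrays under the filter. Its call rests on readings near background, and it ended without IFN alpha array 1 of that window or when the fit used only the arrays of that window.

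Over the first hour the IFN alpha response grew for 6 of the 19 genes, against 1.27% of all genes. Tap1 grew by 2.43, a call that held with each 1 of the 12 arrays left out. Tapbp grew by 1.87, but by 0.00 with its second probe set, and the call also ended without IFN alpha array 2 of 0-30 min or mock array 1 of 30-60 min. The calls for H2-M3 (1.28), B2m (1.21), Tap2 (1.43) and H2-D1 (1.10) ended in 5, 6, 8 and 9 of the 12 fits. For H2-M3 and H2-D1 the levels with IFN alpha were lower at 30-60 than at 0-30 min, and those with mock lower still. H2-M3 went from 5.64 to 5.20 with IFN alpha and from 5.10 to 3.38 with mock, and H2-D1 from 10.28 to 9.59 and from 9.74 to 7.95. Between 30-60 and 150-180 min it grew for 2 genes, against 0.429% of all genes: Psmb10 by 2.15, which held in all 12 fits, and Psmb9 by 1.29, which ended in 10 of 12.

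The 2 interferons were also compared directly. At 30-60 min IFN gamma gave lower levels than IFN alpha for H2-M3 (-1.70), Tapbp (-1.49) and Psmb10 (-1.46), 3 of 19 genes against 2.97% of all genes, and a higher level for Psmb9 (1.57), 1 gene against 2.72%. The Tapbp difference was -0.78 with its second probe set and was not called. At 150-180 min 6 of 19 genes were higher with IFN gamma, against 2.8% of all genes. With the probe set of highest mean 0 were lower (against 1.9%), and 0 also at an unadjusted p under 0.05 (against 4.13%). The 6 higher genes were Psmb9 (2.56), Tap2 (1.79), Tapbpl (1.70), Tap1 (1.57), Erap1 (1.06) and Psme1 (0.73). The Psme1 call ended without IFN alpha array 2 or 3 or IFN gamma array 1 of that window. For Nlrc5 the same difference was 2.38, as a description.

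At 0-30 min 1 gene, Tap1, was higher with IFN gamma than with IFN alpha (1.20, against 0.524% of all genes), a call that ended in 5 of 6 fits with 1 array left out. With the array number as a block 3 genes were called. At 0-60 min Psmb9 was higher (0.82, against 1.65%) and H2-M3 (-1.71) and Tapbp (-1.47) were lower (against 2.36%), and with the block 6 genes were called. The Psmb9 call ended without IFN alpha array 3 or IFN gamma array 1 or 2 of that window. For B2m, H2-K1 and H2-D1 no difference between the interferons was called at 150-180 min with the probe set of highest mean. With its probe set of largest variance H2-K1 was lower with IFN gamma at 150-180 min (-0.83, adjusted p 0.045, limma). It was also lower at 30-60 min (-0.88, adjusted p 0.027, limma).

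**Figure D4:**
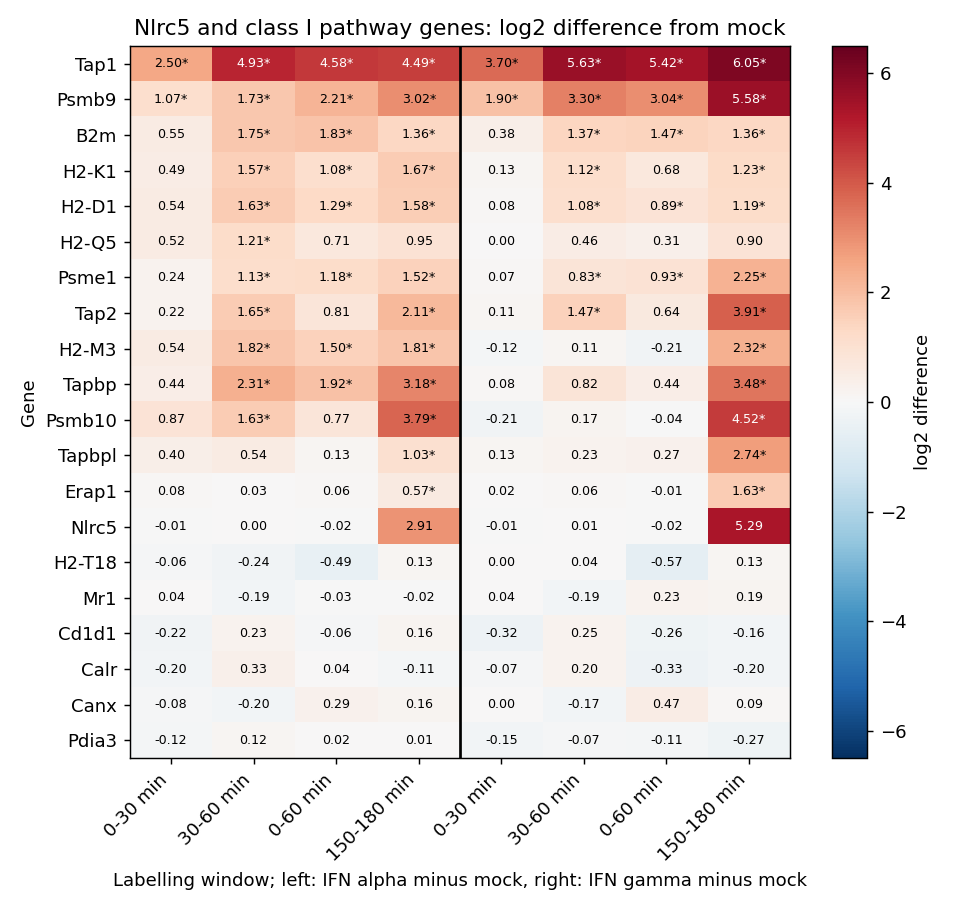
Log2 differences from mock (colour and printed value) of Nlrc5 and the 19 tested class I pathway genes (rows) in each labelling window (columns), with IFN alpha on the left and IFN gamma on the right. Stars mark limma calls, and Nlrc5 was not tested. Tap1 reaches 5.63 with IFN gamma at 30-60 min, where Nlrc5 is at 0.01, and both are above 5 at 150-180 min.

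Members of the class I pathway that did not pass the test in any window were Calr, Canx and Pdia3, chaperones of general protein folding, and H2-T18, Mr1 and Cd1d1, heavy chains of non-classical molecules. With the array number as a block Calr was called lower with IFN gamma at 0-60 min, by -0.33 (adjusted p 0.023, limma). In that fit and window Canx was called higher with IFN gamma, by 0.47 (adjusted p 0.0017, limma). H2-Q5 was also not called with IFN gamma, although at 150-180 min its difference was 0.90 and the fit with the block called it (adjusted p 0.043, limma). Psmb8, the inducible subunit that sits with Psmb9 and Psmb10, did not pass the filter with either of its probe sets. At 150-180 min 1422962_a_at read 3.16 on average with IFN gamma and 2.25 with mock, whereas 1444619_x_at, which has the higher mean, read 2.98 with each.

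The factors that Nlrc5 joins on class I promoters were tested as a list of 8, of which 6 passed the filter. Nfyb, a subunit of the NF-Y complex that binds the Y box, was higher with IFN gamma in every window. At 30-60 min it read 8.73, 9.02 and 8.79 against 6.42, 6.55 and 6.14 with mock, a log2 difference of 2.48 (SE 0.159, adjusted p 1.5e-13, limma). The groups did not overlap. Its differences were 0.81 at 0-30 min, 1.43 at 0-60 min and 1.16 at 150-180 min. The 0-30 min call ended without mock array 1 or IFN gamma array 1 and with a second probe set (0.75). With IFN alpha limma called 0 of the 6 partners in each window. At an unadjusted p under 0.05 it had 0, 2, 1 and 1 of them higher in the 0-30, 30-60, 0-60 and 150-180 min windows, against 1.06%, 5.1%, 10.5% and 4.17% of all genes. The fit with the array number as a block called Rfx5 at 150-180 min with IFN alpha (0.71, adjusted p 0.032, limma).

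Between 30-60 and 150-180 min the Nfyb response to IFN gamma, its difference from mock, fell by 1.32 (adjusted p 0.00031, limma). With the second probe set it fell by 1.08, which was not called. Nfyb levels with IFN gamma changed little, from 8.73, 9.02 and 8.79 to 8.64, 8.59 and 8.71. With mock they rose from 6.42, 6.55 and 6.14 to 7.59, 7.49 and 7.37. The part of the mock levels in this fall was not tested. Rfx5, a subunit of the RFX complex on the X box, differed from mock by 0.71 with IFN gamma at 150-180 min (SE 0.219, adjusted p 0.049, limma), a call that ended with each 1 of the 6 arrays left out. Hence 1, 1, 1 and 2 of the 6 partners were called higher in the 0-30, 30-60, 0-60 and 150-180 min windows of IFN gamma, against 0.754%, 3.82%, 3.83% and 4.37% of all genes. By limma 0 were lower, against 0.0419%, 2.06%, 2.9% and 1.54%, and 0 also at an unadjusted p under 0.05, against 0.513%, 7.73%, 11.8% and 7.11%.

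Among the inducers and signalling genes 16 of 18 were tested. With IFN gamma 4, 7, 7 and 10 of them were higher in the 0-30, 30-60, 0-60 and 150-180 min windows, against 0.754%, 3.82%, 3.83% and 4.37% of all genes. With IFN alpha 4, 7, 7 and 7 were higher, against 0.377%, 2.4%, 1.91% and 2.58%. Usp18 and Irf7 read at most 3.34 and 2.80 on the mock arrays and passed the filter only through interferon arrays. They could thus hardly fail to differ from mock somewhere, and the counts support nothing by themselves. In these windows limma called 0 lower, against the shares given for the class I pathway. At an unadjusted p under 0.05, 1 was lower in the 30-60 min window of IFN gamma, against 7.73% of all genes: Ifngr2, a chain of the IFN gamma receptor. Irf1, the interferon regulatory factor that IFN gamma induces directly, was called from the first window on. It read 12.87, 12.62 and 12.69 with IFN gamma at 0-30 min against 7.87, 7.34 and 7.57 with mock, a log2 difference of 5.14 (SE 0.19, adjusted p 4.4e-19, limma). The groups did not overlap.

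Irf1 still stood 5.08 above mock with IFN gamma at 150-180 min but only 1.17 above it with IFN alpha, after 4.09 at 30-60 min. Its IFN alpha response fell by 2.91 between these windows (adjusted p 3e-09, limma), and IFN gamma exceeded IFN alpha by 3.91 at 150-180 min. Irf9, the DNA-binding part of the ISGF3 complex, was called in all 8 comparisons with mock, by 2.78 to 4.22. Stat2, its partner in that complex, was higher by 3.93 with IFN alpha and 3.04 with IFN gamma at 30-60 min.

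Socs1, a feedback inhibitor of Janus kinases, was higher with IFN gamma in every window, by 2.82 at 0-30 min and 4.40 at 150-180 min. Usp18, which dampens signalling at the IFN alpha receptor, and Irf7, an amplifier of the type I response, were higher with IFN alpha than with IFN gamma at 150-180 min. Their IFN gamma minus IFN alpha differences were -4.28 and -2.73. Both genes were under the filter on every mock array and were tested only because of their interferon readings.

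Of 19 other NLR family genes listed, 13 had a probe set and 3 passed the filter. Nod1, a sensor of bacterial cell wall fragments, was the NLR gene with the clearest response. With IFN gamma it read 6.37, 6.47 and 6.56 at 30-60 min against 3.78, 4.11 and 3.54 with mock, a log2 difference of 2.66 (SE 0.174, adjusted p 2.1e-13, limma). The groups did not overlap, and Nod1 was thus called in a window in which Nlrc5 was at background. Mock Nod1 was itself lower in that window, with 6.03, 5.89 and 6.05 at 0-30 min and 6.88, 6.70 and 6.64 at 150-180 min. With IFN gamma Nod1 read 5.96, 5.53 and 5.95 at 0-30 min. The part of the mock levels in the 30-60 min difference was not tested. At 150-180 min the Nod1 difference was 2.78 with IFN gamma and 0.77 with IFN alpha. Naip2, part of the NAIP sensor group, was higher by 1.16 with IFN alpha at 150-180 min, a call that ended without mock array 3.

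Ciita, a relative of Nlrc5 and the transactivator of MHC class II genes, did not pass the filter with any of its 3 probe sets. Its highest reading on any array was 3.81. The IFN gamma arrays of 150-180 min had means of 3.42, 2.75 and 2.71 with the 3 probe sets, against 2.67, 2.19 and 2.21 with mock and 2.64, 2.19 and 2.20 with IFN alpha. The 3 means were thus higher with IFN gamma, with every reading under the filter and, for 1421210_at, 1 IFN gamma array below all mock arrays. Of the class II genes listed, 9 had a probe set and 1, H2-Ea, was tested and not called in any interferon comparison with mock.

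The genes whose pattern is most like that of Nlrc5 were taken by Pearson correlation over the 12 group means, among 1478 genes whose means span at least 2 on the log2 scale. The 12 means share arrays and normalization, 10 of them sit at the Nlrc5 floor, and the correlations are a description. The 8 highest were Gbp2b (0.999), Il15ra (0.991), Tmem140 (0.975), Gm4951 (0.966), Tapbpl (0.962), Greb1l (0.958), Gm12185 (0.955) and Ccl8 (0.951). Gbp2b, a guanylate-binding protein, was 4.42 above mock with IFN gamma and 2.67 with IFN alpha at 150-180 min. Il15ra, the receptor chain that presents interleukin 15, was 2.91 and 1.27 above mock. By rank correlation 3 of these 8 genes stay among the top 8.

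Tapbpl was thus 1 class I pathway gene in the top 8. Psmb10 ranked 9 (r 0.928), Tap2 12 (0.917) and Psme1 24 (0.859). B2m ranked 150 (0.568), and Tap1 ranked 275 (0.474). Erap1 had r 0.974 but spans less than 2 and was not ranked. Tapbp ranked 41, H2-M3 45, Psmb9 58, H2-D1 164 and H2-K1 168. The Nlrc5 means vary through the late interferon groups, so a gene with a late response ranks high by construction.

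**Figure D5:**
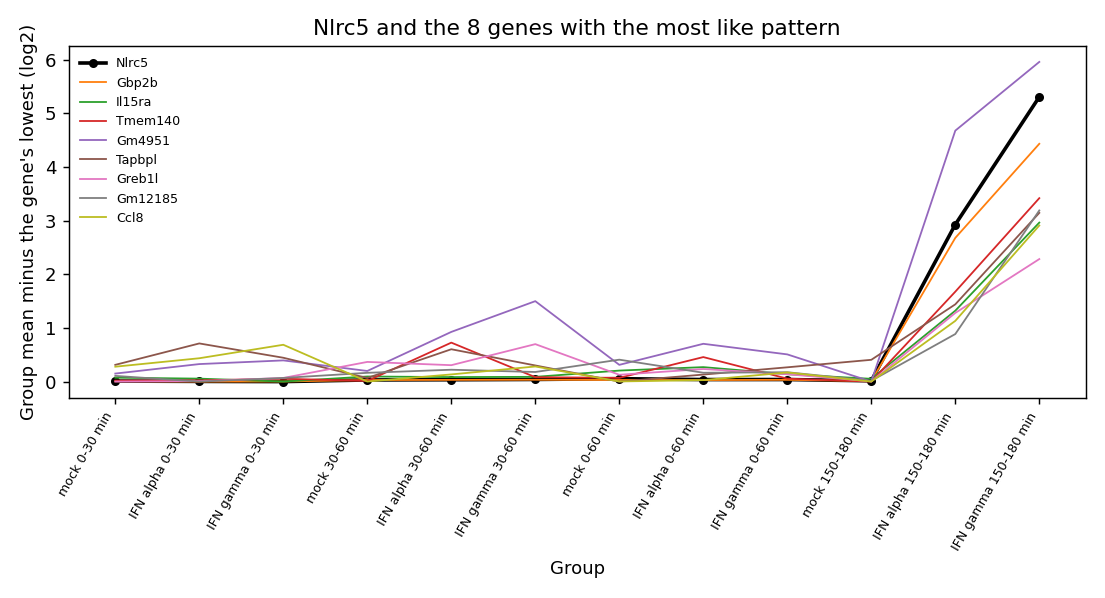
Group means of Nlrc5 and the 8 genes with the highest Pearson correlation to it, each minus the gene's lowest group mean (vertical axis, log2), in the 12 groups (horizontal axis). All 9 lines are highest at IFN gamma 150-180 min and next highest at IFN alpha 150-180 min.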

How the data were processed

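The authors deposited 1 table of log2 values, made with GCRMA, per the submitters' processing notes. Its release is not given in the sources used here. GCRMA corrects background from probe sequence and sums probes to probe sets, so low readings gather near a floor. Values ran from 1.34 to 14.82 and array medians from 3.13 to 3.27, and no further scaling was applied. No array duplicated another.

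Gene names came from the platform annotation. Of 45101 probe sets, 34945 had 1 symbol, 932 several and 9160 none, and 64 were controls. Genes above log2 4 on at least 3 arrays were kept, with the probe set of highest mean per gene, leaving 9549. limma 3.58.1 in R 4.3.3 fitted the 12 group means on all 36 arrays (eBayes with an intensity trend) and 16 contrasts, with Benjamini-Hochberg adjustment over all 9549 genes. The script was tested on simulated data. The named genes were Nlrc5, the tested class I pathway genes, of each other list up to 6 genes by size that passed against mock, and the 8 genes most like Nlrc5. The members and lists were chosen with earlier results of these data known.

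Same-numbered arrays deviated together: in the 0-30, 30-60 and 0-60 min windows each of 9 pairs of groups correlated above 0.1 (0.179 to 0.695), and at 150-180 min 7 of 9 did (lowest -0.286). The number was taken as pairing arrays in the first 3 windows, and the block was an alternative. The fit with the block nonetheless applied it in every window, 150-180 min included. Its calls in that window, as for H2-Q5 with IFN gamma and Rfx5 with IFN alpha, rest on a pairing that is less clear there. Counts and windows of first call are from the fit without the block, which ignores this pairing, unless the block is named. With the block B2m was called from 0-30 min with both interferons and Tapbp from 30-60 min with IFN gamma. These onsets thus depend on the pairing. Promoters were from RefSeq on GRCm38.p6.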

Additional observations from a re-analysis of the deposited data

Results flagged for a closer look

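The responses below differed between 2 labelling windows by a direct test of the difference (interaction contrasts in limma, adjusted p under 0.05 over all genes). Each value is the change of an interferon minus mock difference on the log2 scale. Single arrays were not screened as outliers, because groups of 3 are too small for the test. No explanation was tested.

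From 0-30 to 30-60 min the IFN alpha response of the class I pathway genes grew by 2.43 for Tap1, 1.87 for Tapbp, 1.43 for Tap2, 1.28 for H2-M3, 1.21 for B2m and 1.10 for H2-D1. Among the signalling genes it grew by 4.54 for Usp18, 2.84 for Stat2 and 1.93 for Irf1. From 30-60 to 150-180 min it grew by 2.15 for Psmb10, 1.29 for Psmb9 and 1.78 for Irf7, and fell by 2.91 for Irf1. The Irf7 call ended in 9 of the 12 fits that left out 1 array.

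From 0-30 to 30-60 min the IFN gamma response grew by 1.93 for Tap1, 1.39 for Psmb9, 1.37 for Tap2, 1.67 for Nfyb and 2.84 for Nod1. From 30-60 to 150-180 min it grew by 4.35 for Psmb10, 2.66 for Tapbp, 2.50 for Tapbpl, 2.43 for Tap2, 2.28 for Psmb9, 2.20 for H2-M3, 1.57 for Erap1 and 1.41 for Psme1. In that step it also grew by 3.31 for Usp18 and fell by 1.32 for Nfyb. With mock, Nod1 and Nfyb read lower at 30-60 min than at 0-30 and 150-180 min, and these mock levels enter their values.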

How the results depend on the processing

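Of 92 calls of class I pathway genes, 0 reversed under any setting. The replicate block ended 0 and added 20, the largest-variance probe set ended 6, no filter 7, adding 16 before the log 3, only the arrays of the windows compared 11, and quantile normalization, a common median and no intensity trend 1 each. With 1 array left out 67 of 666 ended. The pairing by array number moved these counts of called class I genes: IFN gamma 0-60 min 9 with the block, IFN gamma against IFN alpha 3 at 0-30 min and 6 at 0-60 min, and IFN gamma growth in the first hour 6. In the fit on only the arrays of the windows compared the counts were 4 for IFN alpha 0-60 min, 3 for IFN gamma 0-60 min, and 2 and 1 for IFN gamma against IFN alpha at 0-30 and 0-60 min. IFN alpha 0-30 min had 1 after adding 16 and 4 with the largest-variance probe set. Without the filter, IFN gamma against IFN alpha at 0-30 min had 0 and IFN alpha growth in the first hour 3. Late IFN alpha growth had 1 without the filter, at log2 6, after quantile normalization and on only those arrays. The cause was not tested.

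Nlrc5 differences moved by more than their SD as follows. After adding 16 they were 1.37 (IFN alpha) and 3.35 (IFN gamma) at 150-180 min, -0.00409 and -0.00392 at 0-60 min, and 0.0023 for IFN gamma at 30-60 min. With a common median they were -0.033 (IFN alpha) and -0.022 (IFN gamma) at 30-60 min and 0.016 for IFN gamma at 0-60 min. After quantile normalization IFN gamma at 30-60 min was -0.00320. All but the first 2 lie at the floor, where values have no order.

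With 1 array left out, counts for IFN alpha ran from 1 to 2, 10 to 11, 7 to 10 and 11 to 13 in the 0-30, 30-60, 0-60 and 150-180 min windows. Counts for IFN gamma were 2, 7 and 12 in each fit at 0-30, 30-60 and 150-180 min and 5 to 8 at 0-60 min, with 8 without mock array 1. IFN gamma against IFN alpha gave 0 to 2, 4, 2 to 4 and 5 to 6. Growth counts were 1 to 5 and 1 to 2 for IFN alpha and 2 to 4 and 8 for IFN gamma. Nlrc5 differences at 150-180 min ran from 2.79 to 3.13 with IFN alpha and 5.22 to 5.33 with IFN gamma. In earlier windows they ran from -0.015 to 0.0025, -0.0049 to 0.013 and -0.021 to -0.013 with IFN alpha, and from -0.016 to -0.0012, 0.0073 to 0.011 and -0.020 to -0.012 with IFN gamma, in the order 0-30, 30-60 and 0-60 min.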

Other observations

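Late onset with no earlier reading was counted over all genes with limits chosen after seeing the data, a log2 difference from mock of at least 2 at 150-180 min and of less than 0.2 in size in each earlier window. With IFN gamma 13 of the 116 genes that reached the first limit met both (11.2%), and with IFN alpha 6 of 105 (5.71%). Nlrc5, Gbp2b and Oas2 met them with both interferons, and 0 class I pathway genes met them with either. With IFN gamma the others included Il15ra, Tmem140 and Uba7, the activating enzyme of the ISG15 pathway. The absence of class I pathway genes depends on these limits. With IFN gamma Psmb10 narrowly missed the earlier limit at 0-30 min, with a mean of 3.55 against 3.76 with mock. H2-M3 did so at 0-60 min, with 3.48 against 3.69. Erap1 reached 1.63 at 150-180 min, under the late limit, whereas its second probe set gave 2.35.

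The genes next to Nlrc5 in the order of the GRCm38.p6 annotation did not pass the test. Of the 3 on each side, Nup93, Herpud1, Cpne2 and Psme3ip1 were tested, and their differences from mock at 150-180 min were between -0.23 and 0.20 with either interferon.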
